A study of Mus musculus with 6 samples.

Results

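Krt5, Krt12, Krt14 and Krt15 are the keratin genes of the basal layer of stratified epithelia and of the corneal epithelium. They were taken by symbol from the table of gene expression, where each had 1 row, and were 4 of its 17866 genes. The 6 libraries came from the corneal epithelium of C57BL/6 mice at 6 months of age, 3 labelled wild type (WT) and 3 labelled Rela-/- (KO). In the study the KO animals were Krt14-Cre; Rela f/f. Rela, which encodes the p65 subunit of NF-κB, was thus deleted in cells where the Krt14 promoter of the Cre line was or had been active. That promoter is named for one of the genes measured here. The study's lineage tracing with this Cre line also labelled epithelia outside the cornea, such as the conjunctiva. Whether the WT animals carried the floxed allele was not given in the sources used here. The study described 3 independent biological samples, and the p-values measure the spread between these samples.

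Keratins form the intermediate filaments of epithelial cells. A filament is built from pairs of a type I and a type II keratin, so the amounts of the types are tied to each other in the cell. Krt5 is a type II keratin and pairs with the type I keratins Krt14 and Krt15 in basal cells, the layer that touches the basement membrane and divides. Krt12 is a type I keratin known for its restriction to the corneal epithelium, where it also forms filaments with Krt5, and Krt15 is known as a marker of progenitor cells at the limbus and in the hair follicle.

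Between 20158404 and 20880347 reads were assigned to genes in each library. At this depth 3 counts corresponded to between 0.137 and 0.152 CPM (counts per 1000000 assigned reads, scaled between libraries), a value far below every level of the 4 keratins, and such a floor covers counting error only. Counts of Rela itself were 1871, 1844 and 1855 for WT against 318, 223 and 313 for KO (log2 fold change -2.60, SE 0.141, adjusted p = 2.74e-06, edgeR), so the labels held. Of the 13305 genes tested with edgeR's quasi-likelihood method, 62.0% had an adjusted p under 0.05, 31.8% higher and 30.2% lower in KO, so a call by itself was common in this comparison. Of the 4 keratins 3 were called, 1 higher and 2 lower, and the CPM groups of these 3 did not overlap, which held for 68.6% of all genes tested. The same 3 passed the study's threshold (adjusted p of at most 0.001 and at least 2-fold), which 19.8% of the tested genes passed, 11.6% higher and 8.24% lower.

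In WT epithelium the 4 genes supplied most of the keratin mRNA, and in KO epithelium they did not. The comparison between genes was made on TPM, in which reads are divided by transcript length and scaled to 1000000 in each library. The 4 genes held 83.8%, 80.8% and 80.6% of the summed TPM of all keratin genes in the WT libraries, and 18.6%, 22.3% and 24.0% in the KO libraries. Their share therefore lay at 81.7% ± 1.78 in WT and 21.6% ± 2.74 in KO (n = 3 each, mean ± SD), with no overlap between groups. The summed keratin TPM itself was higher in KO, with 94300, 103000 and 91900 in WT and 143000, 141000 and 125000 in KO. The ratio of summed type I to summed type II keratin TPM was 1.32, 1.29 and 1.35 in WT and 1.25, 1.30 and 1.21 in KO, and its groups overlapped. The smaller share of the 4 genes thus stood beside a larger keratin sum and a ratio between the types that moved little. These are bulk samples, and fewer cells of a type cannot be told apart from less RNA per cell.

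**Figure D1:**
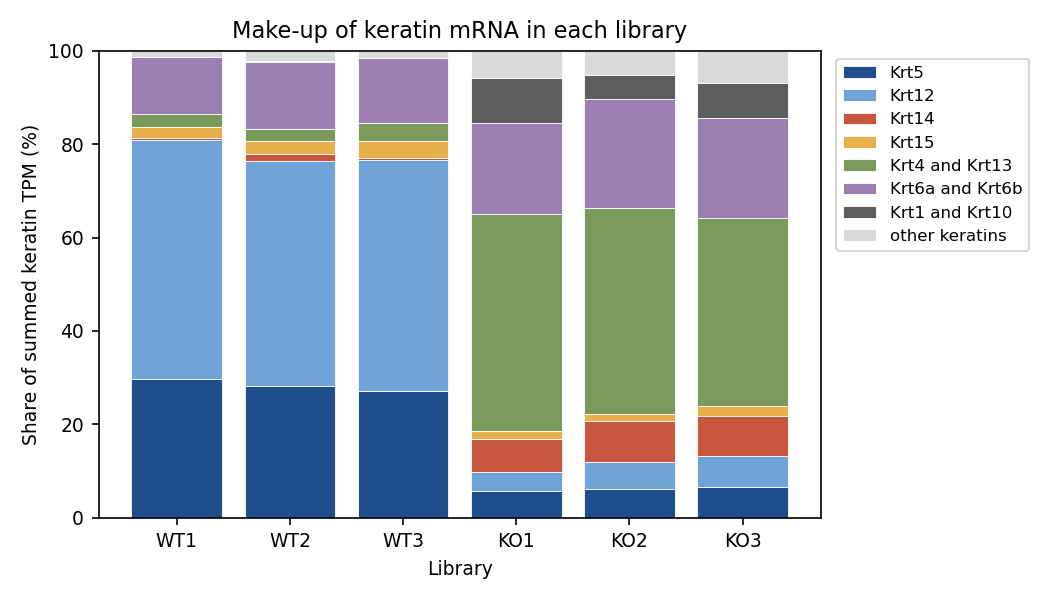
Stacked bars show, for each of the 6 libraries, the share (percent of summed keratin TPM, vertical axis) held by Krt5, Krt12, Krt14, Krt15 and other keratins. The 4 genes fill 80.6 to 83.8% of the WT bars, nearly all of it Krt5 and Krt12, and 18.6 to 24.0% of the KO bars, where Krt4 and Krt13 form the largest block.

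Krt12 (gene 268482, GRCm38 chromosome 11, positions 99415664 to 99422593, minus strand) had the highest TPM of all genes in each of the 3 WT libraries. Its TPM was 48435, 49401 and 45420 in WT and 5868, 8277 and 8157 in KO. The WT values lay close together and every KO value was far below them, with KO replicate 1 the lowest. The deposited counts were 787634, 811469 and 755776 in WT and 109690, 154911 and 161317 in KO. In CPM the gene went from 36538 ± 1060 to 7121 ± 1363 (n = 3 each, mean ± SD). The log2 fold change was -2.36, with a 95% confidence interval from -2.76 to -1.96 (SE 0.174, adjusted p = 1.29e-05, edgeR). This left 19.5% of the WT level. The remaining transcript was still abundant, and Krt12 ranked 13 to 16 by TPM among all genes in the KO libraries.

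Krt5 (gene 110308, chromosome 15, positions 101707070 to 101712891, minus strand) was the most abundant type II keratin in WT. Its TPM was 27975, 28867 and 24940 in WT and 8238, 8637 and 8339 in KO. The KO libraries differed from each other by only a few percent, and all 3 were below the WT libraries. The deposited counts were 582357, 610732 and 544618 in WT and 203543, 213715 and 212979 in KO. In CPM Krt5 fell from 26958 ± 1335 to 10547 ± 213 (n = 3 each, mean ± SD). Its log2 fold change was -1.35, with a 95% confidence interval from -1.63 to -1.07 (SE 0.122, adjusted p = 3.71e-05, edgeR), and 39.1% of the WT level was left. Its share of all type II keratin TPM went from 65.8% ± 2.71 in WT to 13.9% ± 0.881 in KO (n = 3 each, mean ± SD).

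The promoters of the pair that fell together are shown because these windows hold a RefSeq start site of each gene. The sequences are RefSeq windows on GRCm38.p6, from 250 bases before to 50 bases after the start, written 5′ to 3′ on the minus strand, with the match to TATAAA in capitals. Krt5 covers chr15:101712856-101713155 and Krt12 covers chr11:99422210-99422509. The RefSeq start of Krt12 lies 334 bases inside the 5′ end that the table gives for the gene, and that of Krt5 lies 14 bases outside it. The whole Krt12 window therefore lies inside the gene as deposited.
Krt5: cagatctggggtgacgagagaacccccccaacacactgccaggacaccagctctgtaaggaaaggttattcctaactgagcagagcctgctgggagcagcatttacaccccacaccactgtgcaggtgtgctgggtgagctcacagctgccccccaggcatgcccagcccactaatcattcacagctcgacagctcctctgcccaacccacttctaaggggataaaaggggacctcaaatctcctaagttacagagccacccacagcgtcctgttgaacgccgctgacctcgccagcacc
Krt12: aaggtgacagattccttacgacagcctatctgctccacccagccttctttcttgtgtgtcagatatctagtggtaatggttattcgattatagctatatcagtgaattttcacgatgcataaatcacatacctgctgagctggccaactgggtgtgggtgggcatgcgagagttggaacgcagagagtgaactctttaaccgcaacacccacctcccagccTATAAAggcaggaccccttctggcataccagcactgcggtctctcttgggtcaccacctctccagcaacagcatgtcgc
The Krt12 window holds TATAAA once, starting 29 bases before the start site, and the Krt5 window does not hold these letters on either strand. Over both strands, TATAAA was found in 13.6% and the NF-κB consensus in 4.51% of the 32851 windows of this length. Neither of the printed windows holds the NF-κB consensus on either strand, which says only that the letters are not in these windows. The Krt14 window, which is not printed, holds this consensus once, on the reverse strand, 107 bases before the start used for that window. That start lies 1480 bases inside the 5′ end of the gene, which is 100207510 both in RefSeq and as deposited. Coding bases of Krt14 at chr11:100207017-100207150 lie upstream of the window, so the match lies within the gene body. Whether NF-κB acts through this match was not tested.

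Krt14 (gene 16664, chromosome 11, positions 100203162 to 100207510, minus strand) moved the other way. Its TPM was 347, 1633 and 443 in WT and 10117, 12308 and 10800 in KO. The KO libraries lay close together, whereas WT replicate 2 stood well above the other 2 WT libraries, although still far below KO. The deposited counts were 5207, 25395 and 6712 in WT and 184061, 223531 and 205085 in KO. In CPM Krt14 rose from 579 ± 523 to 10251 ± 946 (n = 3 each, mean ± SD), or 17.7-fold. On the log2 scale this was 4.15, with a 95% confidence interval from 2.79 to 5.50 (SE 0.593, adjusted p = 0.000427, edgeR). Among all genes by TPM, Krt14 ranked 352, 68 and 272 in the WT libraries and 10, 9 and 8 in the KO libraries.

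WT replicate 2 decided how precisely the rise in Krt14 was measured. Its Krt14 level was 4.29-fold that of the other 2 WT libraries, and only 0.489% of the tested genes stood as far from the other WT libraries in this sample. Without it the rise was 5.21 on the log2 scale (SE 0.210, adjusted p = 1.54e-06, edgeR). Krt16, the next gene of the table along the chromosome and a type I keratin of wounded and hyperproliferative epidermis, showed the same library apart, with 209, 18787 and 360 counts in WT. In this library the summed TPM of the corneal markers was 42680 beside 45030 and 43740 in the others, that of the conjunctival markers 2782 beside 2782 and 3919, and that of the suprabasal epidermal markers 20.8 beside 16.1 and 14.2. Single epidermal genes were higher there, as Lor was with 2.04 TPM beside 0.30 and 0.51, and Krtdap with 0.97 TPM beside 0 and 0.24. The part of cell makeup in the Krt14 value of this library was not tested.

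Krt15 (gene 16665, chromosome 11, positions 100131759 to 100135949, minus strand) did not pass the test. Its TPM was 2280, 2903 and 3261 in WT and 2446, 2203 and 2781 in KO, and the groups overlapped. The deposited counts were 37103, 48005 and 55673 in WT and 47244, 42614 and 55531 in KO. In CPM the means were 2190 ± 470 in WT and 2432 ± 317 in KO (n = 3 each, mean ± SD). The log2 fold change was 0.15, with a 95% confidence interval from -0.26 to 0.56 (SE 0.179, adjusted p = 0.483, edgeR). The interval leaves room for a modest change in either direction. The sign depended on the scale. On log2(TPM + 1) the difference was -0.175 (adjusted p = 0.325, limma), while the median of all tested genes on that scale was -0.282, so that Krt15 stood 0.107 above the median gene there.

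**Figure D2:**
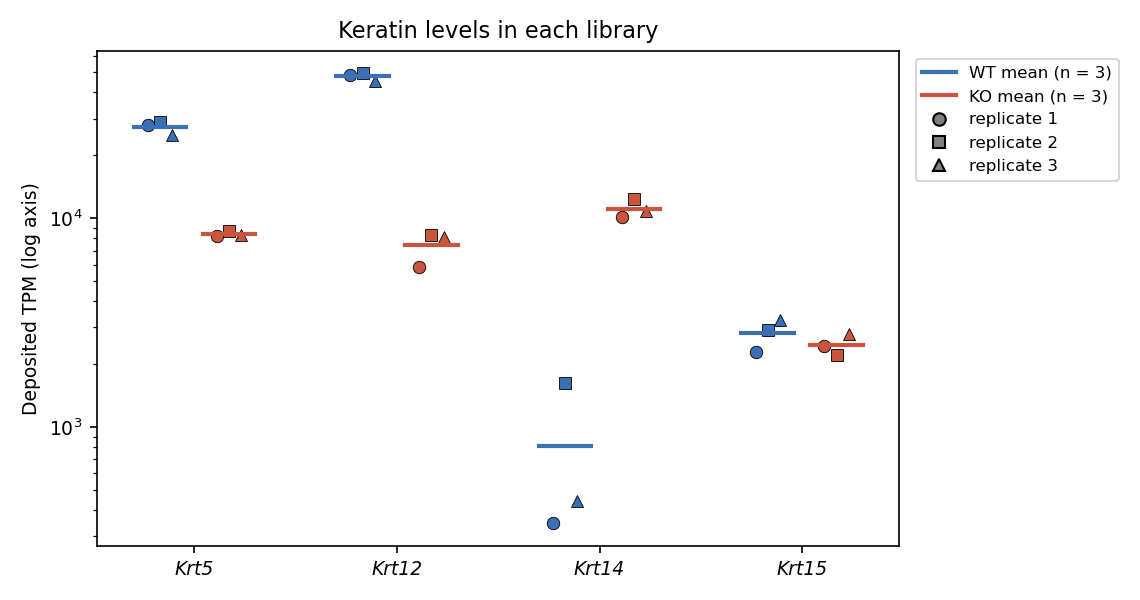
Points show the deposited TPM (log axis) of each gene in each library, with a marker shape for each replicate number, and bars show the mean of the 3 libraries of a genotype. Krt5 and Krt12 are lower in every KO library, Krt14 is higher in every KO library with WT replicate 2 standing apart at 1633, and the Krt15 groups overlap.

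The order of the 4 genes by TPM was different in the genotypes. In WT it ran Krt12, Krt5, Krt15, Krt14, and no neighbours in this order overlapped in their ranges over the 3 libraries. In KO it ran Krt14, Krt5, Krt12, Krt15. There Krt14 lay above Krt5 and Krt15 was lowest in each library. The ranges of Krt5 and Krt12 overlapped, from 8238 to 8637 and from 5868 to 8277, although Krt5 was above Krt12 within each library. Among all keratin genes, Krt12 went from rank 1 to 7, Krt5 from 2 to 6, Krt14 from 7 to 5 and Krt15 from 5 to 11.

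Ratios within a library do not depend on the scaling between libraries. The TPM ratio of Krt14 to Krt5, the classical partners of basal cells, was 0.0124, 0.0566 and 0.0178 in WT and 1.23, 1.43 and 1.30 in KO. In WT there was thus far less Krt14 than Krt5, and in KO slightly more. The mean log2 ratio was 5.82 higher in KO. The ratio of Krt12 to Krt5 was 1.73, 1.71 and 1.82 in WT and 0.712, 0.958 and 0.978 in KO, a difference of -1.0 on the log2 scale, so Krt12 was reduced more than Krt5 in each KO library. The ratio of Krt15 to Krt14 was 6.57, 1.78 and 7.36 in WT and 0.242, 0.179 and 0.258 in KO, a log2 difference of -4.30. Krt15 exceeded Krt14 in every WT library and was below it in every KO library. For each of these 3 ratios an exact permutation test over libraries (two-sided) returned p = 0.1 (0.1 after Benjamini-Hochberg adjustment over the 3), which is the smallest value that 3 libraries against 3 allow.

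**Figure D3:**
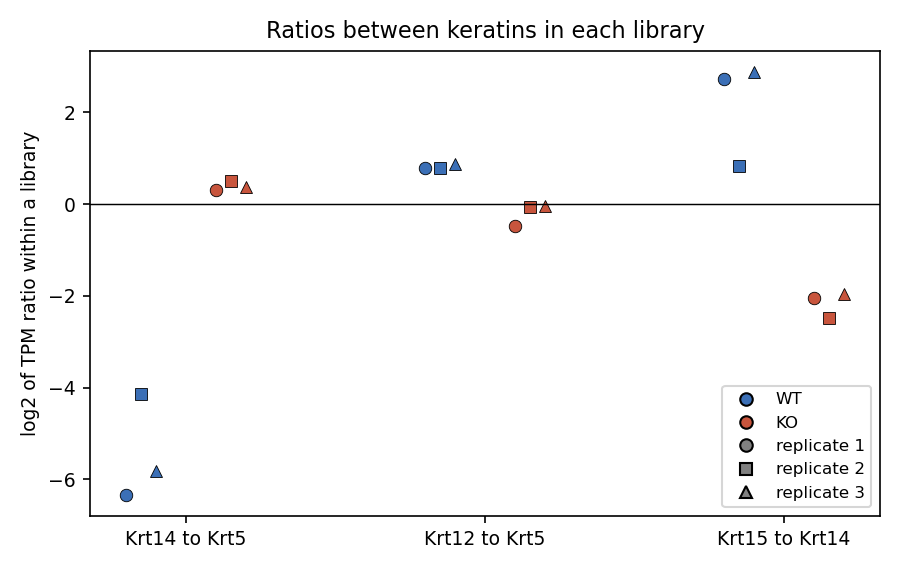
The vertical axis is the log2 of the TPM ratio of 2 keratins within a library, and points are libraries coloured by genotype, with 0 marking equal TPM. The ratio of Krt14 to Krt5 goes from between -6.33 and -4.14 in WT to between 0.296 and 0.511 in KO, and the other 2 ratios lie lower in every KO library.

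Among the 3 type I genes taken alone, Krt12 made up 94.9%, 91.6% and 92.5% of their summed TPM in WT and 31.8%, 36.3% and 37.5% in KO. Krt14 made up 1.54% ± 1.30 in WT and 52.9% ± 2.79 in KO, and Krt15 5.50% ± 1.09 in WT and 11.9% ± 1.96 in KO (n = 3 each, mean ± SD). The larger share of Krt15 stood beside a smaller sum of the 3 genes, and its own level did not pass the test. Set against all type I keratins, Krt12 went from 87.2% ± 2.58 to 9.88% ± 2.30, Krt14 from 1.44% ± 1.21 to 14.6% ± 1.67 and Krt15 from 5.15% ± 0.972 to 3.30% ± 0.672 (n = 3 each, mean ± SD).

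The members share stretches of coding sequence with other keratins, which bears on how reads of 50 bases could be assigned. In the GENCODE M21 transcripts, 14.4% of the 50-base words of Krt14 were also found in another gene on the sense strand, mostly in Krt16, with some in Krt17. The figure was 8.52% for Krt5, mostly in Krt6a, and 0.666% for Krt15. Krt12 shared no sense word with another gene, but 42.0% of its words overlapped the antisense transcript A830036E02Rik, and 3.72% of those of Krt5 overlapped the antisense gene Gm44323. It was not stated whether the authors counted by strand. The estimated counts of Krt5, Krt14 and Krt15 were not whole numbers, which happens when reads are split between genes, whereas those of Krt12 were whole in 5 of 6 libraries (within 0.005).

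The longest stretch that is identical in Krt14 and Krt16 is printed because it shows where reads of these genes cannot be told apart. Capitals mark the identical run and lower case the 20 bases on each side. The run has 134 bases, lies within 1 exon of each gene, and covers chr11:100207017-100207150 in Krt14 and chr11:100248476-100248609 in Krt16 (GRCm38, minus strand).
Krt14: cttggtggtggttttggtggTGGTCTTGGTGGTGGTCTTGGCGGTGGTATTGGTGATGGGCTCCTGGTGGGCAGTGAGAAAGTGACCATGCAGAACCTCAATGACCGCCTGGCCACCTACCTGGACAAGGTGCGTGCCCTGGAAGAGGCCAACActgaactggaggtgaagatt
Krt16: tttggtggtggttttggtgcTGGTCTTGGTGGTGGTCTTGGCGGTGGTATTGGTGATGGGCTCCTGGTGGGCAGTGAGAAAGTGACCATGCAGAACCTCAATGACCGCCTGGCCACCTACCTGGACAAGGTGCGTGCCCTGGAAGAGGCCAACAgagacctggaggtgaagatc
As an extreme case chosen after seeing the data, all counts of Krt5, Krt14 and Krt15 were summed with all those of the genes that share words with them. Only 8.52% of the Krt5 words and 14.4% of the Krt14 words are shared, so the sums also pool reads that can be told apart. Gm5478, which shares 82 words with Krt5, is not among the deposited genes and was left out. For Krt14 with Krt16 and Krt17 the log2 fold change of the sum was 4.17 (adjusted p = 0.00166, edgeR). For Krt5 the sum did not fall, at 0.257 (adjusted p = 0.14, edgeR), because Krt6a, Krt6b and Gm5414 held 29.9 to 34.5% of the summed counts in WT and 76.8 to 79.6% in KO. The sum for Krt15 with Krt17 and Krt25 was higher in KO, at 0.877 (adjusted p = 0.00298, edgeR), with 39.7 to 40.6% of the KO counts from the added genes. Krt15 shares 1 word with Krt17 and 10 with Krt25, and Krt25 had at most 0.18 TPM in KO. The higher sum thus came from the added Krt17 counts and is no measure of Krt15.

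The neighbours of the 4 genes in the keratin clusters moved in their own ways. Krt10, the type I keratin of suprabasal epidermis, precedes Krt12 by coordinate and rose by 9.67 on the log2 scale (SE 0.240, adjusted p = 1.14e-07, edgeR), where Krt12 fell. Krt6a, a keratin of wounded epithelium, precedes Krt5 and rose by 1.51 (SE 0.166, adjusted p = 0.000101, edgeR), where Krt5 fell. Krt13, a keratin of mucosal epithelia, precedes Krt15 and rose by 4.28 (SE 0.237, adjusted p = 2.97e-06, edgeR), and Krt19, a keratin of simple epithelia, follows it and rose by 0.79 (SE 0.159, adjusted p = 0.00266, edgeR). Krt16, which follows Krt14, rose by 3.86 (SE 1.47, adjusted p = 0.0479, edgeR). The Krt16 call was lost when any single library other than WT replicate 2 was left out (adjusted p from 0.0621 to 0.0857), without a filter on low counts (0.0567), with a mean count of at least 50 (0.0503) and with robust dispersion (0.17). Without WT replicate 2 the log2 fold change was 8.36 (adjusted p = 1.51e-06, edgeR). Krt71, Krt20 and Krt9, the other neighbours, had at most 7 counts in any library and were not tested.

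Most of the other keratins that could be tested rose. Of 24 other type I keratins listed, 10 passed the filter on low counts, 9 were higher, 0 were lower and 1 was not called, with a median log2 fold change of 4.07 beside 0.00632 over all tested genes. Of all tested genes 31.8% were called higher. Krt24 and Krt10 had the largest rises, at 11.60 (SE 1.49) and 9.67 (SE 0.240). Krt24 had 407, 232 and 23.4 TPM in KO. Krt24 and Krt42 had at most 0.18 and 0.07 TPM in WT, so they passed the filter only through the KO libraries. Genes that passed in this way could only be called higher, so the tally and the median partly reflect the filter. Of 24 other type II keratins listed, 13 were tested, 10 were higher, 0 lower and 3 not called, with a median of 1.48. Krt1 and Krt4 led them at 9.64 and 7.19. Krt79, with at most 0.1 TPM in WT, also passed the filter only through KO. In the main edgeR fit Krt12 and Krt5 were thus the keratins called lower among the 27 tested. Of the other type II keratins 1 was called lower with DESeq2, library totals only, the replicate block or without KO replicate 3. Krt8 had 12.6, 11.7 and 17.2 TPM in WT and 2.61, 6.5 and 8.39 TPM in KO. It was not called in the main fit (log2 fold change -0.91, adjusted p = 0.0612, edgeR). On the TPM scale 7 type II keratins of this list remained higher and 2 were lower (limma, pseudocount 1). There 2754 of all 13305 tested genes were called higher and 6350 lower. Krt80, listed among the type II keratins, had 721 TPM in WT and 428 TPM in KO and was not called (log2 fold change -0.39, adjusted p = 0.14, edgeR).

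**Figure D4:**
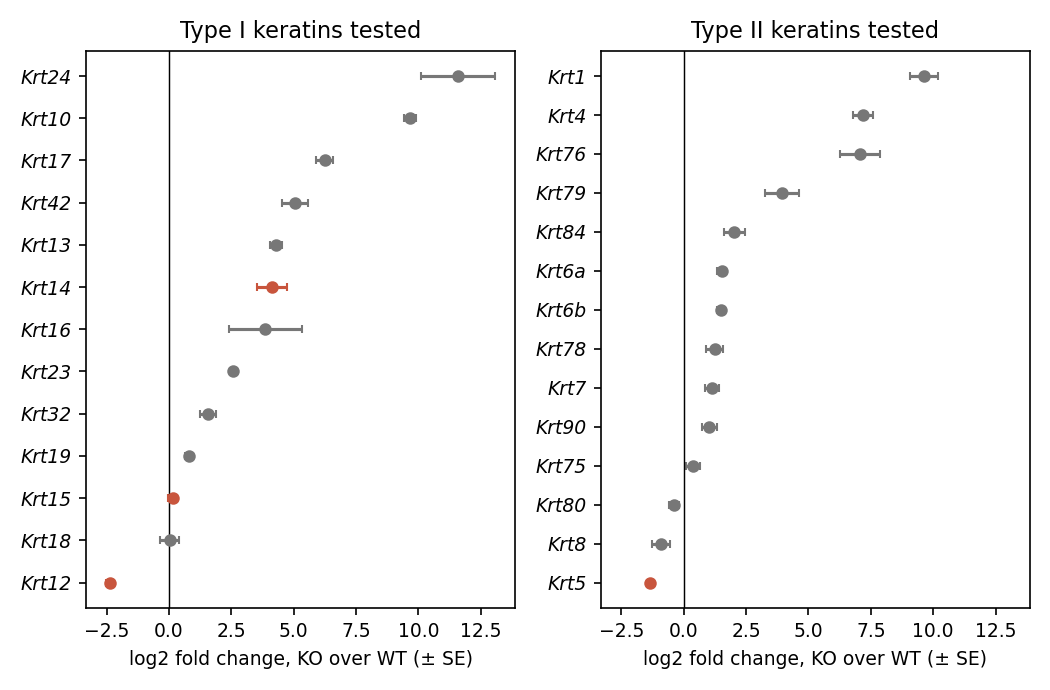
Horizontal axes give the log2 fold change of KO over WT with its standard error for the type I keratins tested (left) and the type II keratins tested (right), with Krt5, Krt12, Krt14 and Krt15 in red. Krt12 at -2.36 and Krt5 at -1.35 lie lowest in their panels, Krt15 lies near 0 and Krt14 lies among the other rising keratins at 4.15.

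Basal cells hold Krt5 and Krt14 filaments to the basement membrane through hemidesmosomes. Of 10 genes for this attachment, 1 was higher, 8 lower and 1 not called, with a median log2 fold change of -0.67. Over all tested genes 31.8% were called higher and 30.2% lower. Without WT replicate 1 the calls of Cd151 and Dst were lost (adjusted p = 0.069 and 0.057, edgeR), and without WT replicate 3 that of Cd151 (0.056). Col17a1, the transmembrane collagen of the hemidesmosome, had 1358, 1288 and 1015 TPM in WT and 244, 252 and 244 TPM in KO (log2 fold change -1.96, SE 0.125, adjusted p = 5.91e-06, edgeR). Itga3, an integrin chain that binds laminin, fell by 1.53 on the log2 scale (SE 0.120, adjusted p = 1.82e-05, edgeR). Lamb3, a chain of the laminin of this membrane, rose by 1.25 (SE 0.111, adjusted p = 3.43e-05, edgeR).

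Desmosomes anchor keratin filaments at contacts between cells. Of 7 anchor genes, 1 was higher, 3 lower and 3 not called, against 0 higher and 4 lower on log2(TPM + 1) (limma). In the count test 62.0% of all tested genes were called. On log2(TPM + 1) 2754 of the 13305 tested genes were called higher and 6350 lower. Pkp1, a desmosomal plaque protein abundant in epidermis, rose by 0.77 (adjusted p = 0.00452, edgeR), with an adjusted p of 0.0505 on the TPM scale (limma, pseudocount 1). Evpl, the plakin envoplakin, fell by 1.17 on the log2 scale (adjusted p = 0.000949, edgeR). Pkp2 was low, at no more than 5.25 TPM in any library, and its fall of 0.94 on the log2 scale (adjusted p = 0.0422, edgeR) was lost without WT replicate 3, KO replicate 1 or KO replicate 2 (adjusted p from 0.0822 to 0.171).

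Of 11 transcription factors known to act on these keratins, 2 were higher, 3 lower and 6 not called, where 62.0% of all tested genes were called. On log2(TPM + 1), where the median of all tested genes was -0.282, 1 was higher and 8 were lower (limma). Among all 13305 tested genes 2754 were called higher and 6350 lower on that scale. Pax6, the eye transcription factor that is known to activate Krt12, had 456, 443 and 410 TPM in WT and 126, 113 and 113 TPM in KO (log2 fold change -1.54, SE 0.0978, adjusted p = 5.92e-06, edgeR). Elf3, an epithelial Ets factor, fell by 1.10 on the log2 scale (adjusted p = 0.000266, edgeR). Tfap2b, of the AP-2 family, rose by 2.12 from no more than 4.51 TPM in WT (adjusted p = 0.00325, edgeR). In KO it had 17.05, 5.41 and 17.29 TPM, so KO replicate 2 lay close to the WT libraries. Klf6, a Krüppel-like factor, rose by 0.48 (adjusted p = 0.0185, edgeR), and this call was lost on the TPM scale (adjusted p = 0.311, limma) and without WT replicate 1 or KO replicate 3 (adjusted p of 0.0605 and 0.0663). Trp63, which encodes p63 of basal cells and was also set as a basal marker, had 158, 145 and 111 TPM in WT and 110, 103 and 105 TPM in KO (log2 fold change 0.03, adjusted p = 0.797, edgeR). On log2(TPM + 1) it was called lower, as was the anchor Pkp3 (limma).

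**Figure D5:**
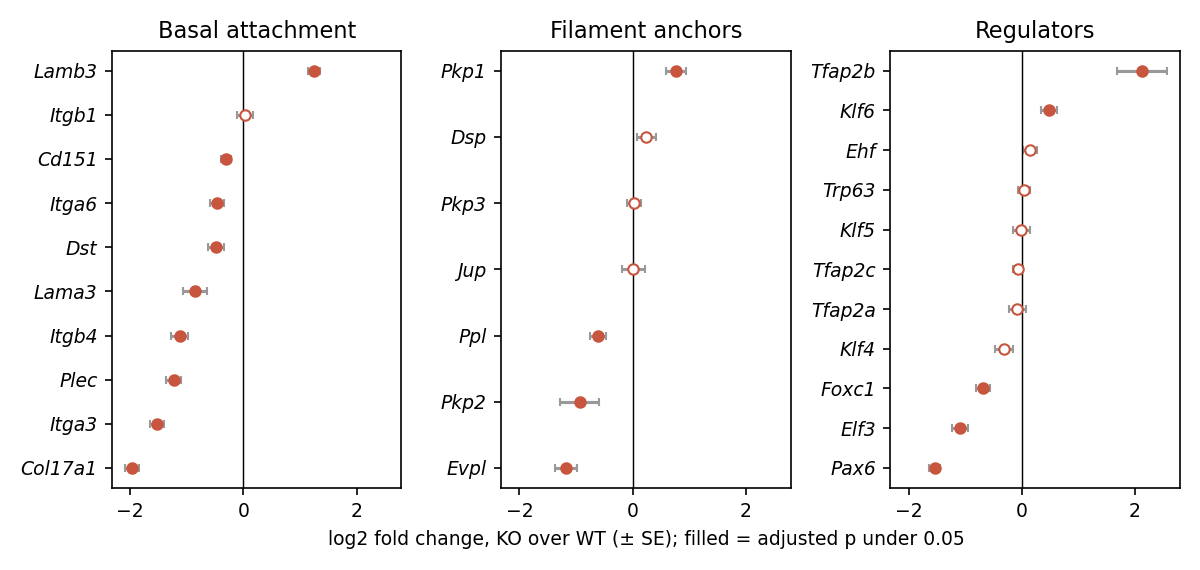
Horizontal axes give the log2 fold change of KO over WT with its standard error for attachment genes, filament anchors and transcription factors, and filled points had an adjusted p under 0.05 (edgeR). Col17a1 at -1.96, Evpl at -1.17 and Pax6 at -1.54 are lowest in their panels, and Trp63 lies at 0.03.

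The level of Krt12 was set beside markers of the tissue and of tissues that a dissection could include. The corneal markers Aldh3a1, Tkt, Slurp1, Upk1b, Clu and Pax6 summed to between 42680 and 45030 TPM in WT and between 7130 and 7876 TPM in KO, and 5 of the 6 were lower. In the count test 30.2% of all tested genes were called lower and 31.8% higher. With limma on log2(TPM + 1) 6350 of the 13305 were called lower and 2754 higher. All 7 conjunctival markers were higher in the count test, and 6 of them on the TPM scale, where Krt7 was lost (adjusted p = 0.0539, limma) and its value of 72.1 TPM in KO replicate 1 lay within the WT range of 58.1 to 85.1 TPM. Their sum went from between 2782 and 3919 TPM to between 50990 and 66860 TPM, most of it Krt13 and Krt4, while the goblet cell mucin Muc5ac was at 0 in WT and at most 1.70 TPM in KO. Of the 6 suprabasal epidermal markers 5 were tested and all 5 were higher. Flg and Krtdap, with at most 0.09 and 0.97 TPM in WT, passed the filter only through KO and could only be called higher. The same held for Muc5ac and for Adgre1, an immune marker. Krt2, the suprabasal marker that was not tested, had at most 0.11 TPM in KO. The 6 suprabasal markers summed to 14.2 to 20.8 TPM in WT and 21940, 14000 and 15070 TPM in KO. KO replicate 1, lowest for Krt12, was highest for this sum. Hair follicle markers, a source of Krt15 in skin, summed to 5.63 to 10.7 TPM in WT and 7.20 to 11.2 TPM in KO. Stromal markers summed to at most 2.17 TPM in WT and 10.3 to 19.1 TPM in KO, endothelial markers to at most 0.16 and 0.47 TPM, melanocyte markers to 7.10 to 8.10 and 3.04 to 3.60 TPM, and muscle markers to at most 0.54 and 0.44 TPM. Immune markers summed to 172 to 193 TPM in WT and 150 to 194 TPM in KO, a sum held mostly by Itgam and Cd68, but of the 6 tested 4 were higher and 1, Itgam, was lower. The 4 were Ptprc, Csf1r, Adgre1 and H2-Aa, and H2-Aa, an antigen presentation gene, went from 1.97 to 5.54 TPM in WT to between 37.9 and 61.6 TPM in KO (log2 fold change 3.90, adjusted p = 3.22e-05, edgeR). The part of a different cell makeup in the keratin levels was not tested.

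For each gene the most similar patterns over the 6 libraries were sought among 10456 other genes by Pearson's r of log2 CPM. The 6 points are 2 genotypes of 3 libraries, so these values mainly describe the genotype step and are given without a test. Nearest to Krt5 were Tiam2 (r = 0.9992), Vkorc1l1 (0.9992) and Lipo3 (0.9988), and nearest to Krt12 were Nr3c1 (0.9994), which encodes the glucocorticoid receptor, Lyplal1 (0.9989) and Sfmbt1 (0.9987). Nr3c1 had 96.2, 96.2 and 94.7 CPM in WT and 41.9, 49.5 and 48.3 CPM in KO, lowest in the same KO library as Krt12. Nearest to Krt14 were Sars (0.9997), Slc39a6 (0.9990) and the mitotic kinesin gene Kif11 (0.9984). Each of them shared the raised WT replicate 2 with Krt14, as Kif11 did with 31.1 CPM in WT replicate 2, at most 23.3 CPM in the other WT libraries and 53.7 to 58.3 CPM in KO. Nearest to Krt15 were Mboat1 (0.9763), Trabd (0.9668) and Mcl1 (0.9666).

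Between the members, r over the 6 libraries was 0.992 for Krt5 and Krt12, -0.935 for Krt5 and Krt14 and -0.934 for Krt12 and Krt14, which again follows the genotype step. When the genotype means were removed, r was 0.483 for Krt5 and Krt12, 0.837 for Krt5 and Krt14 and 0.22 for Krt12 and Krt14. WT replicate 2 was the highest WT library for both Krt5 and Krt14. In the other WT libraries Krt5 was at 26676 and 25787 CPM where Krt14 was at 239 and 318 CPM, which is the opposite order. The genes nearest to Krt14 in these deviations were Deptor (0.998), Sars (0.9974) and Hmgn2 (0.997), and Hmgn2 had 100, 149 and 109 CPM in WT and 114, 117 and 113 CPM in KO. Those nearest to Krt5 were Slc35b4, Cpped1 and Psip1, to Krt12 Cnpy3, Msra and Eif4e, and to Krt15 Smpdl3b, Litaf and Tnfrsf12a, all with r of at least 0.9964.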

How the data were processed

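The deposited table gave for each gene and library the expected count of RSEM, FPKM and TPM. The authors filtered single-end reads of 50 bases with SOAPnuke, aligned them with Bowtie2 2.2.5 and quantified them with RSEM 1.2.12. The submitters' notes name the build mm9, but the coordinates in the deposited table are GRCm38. The labels name an Illumina kit, the study's methods rRNA depletion and a BGI instrument. The deposited FPKM values were used in alternatives only. The deposited fold changes and p-values of the authors' own comparison were not used.

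Groups came from the titles. Expected counts were rounded, and KO was compared with WT by the quasi-likelihood test of edgeR 4.0.16 (R 4.3.3, TMM, filterByExpr, no covariate). Benjamini-Hochberg adjustment ran over 13305 genes, and calls were made at 0.05. CPM values were scaled by TMM factors of 1.012 to 1.054 in WT and 0.9524 to 0.9896 in KO. TPM ratios were tested by exact permutation (scipy 1.17.1). The scripts were tested on simulated data. Alternatives were DESeq2 1.42.0, limma 3.58.1 on log2(TPM + 1) and log2(TPM + 0.1), other factors and filters, robust dispersion, a replicate block and leaving out each library. Genes sharing 50-base words were found in GENCODE M21, and promoters came from RefSeq GRCm38.p6, where Krt15 had no entry. The Krt14 window, whose start lies 1480 bases inside the deposited gene, was scanned for both motifs and not printed. Krt74, Krt81, Krt85 and Cdh5 were listed and not analysed here. Beside the 4 keratins and Rela, the genes named were the nearest genes on either side, the 3 most similar genes by each measure (mean count of at least 100), and the 2 called genes with the largest rise and fall of each list. Krt8, Krt42, Krt79, Krt80, Cd151, Dst and single marker genes were named after their values were seen. The members and lists were chosen with earlier results of these data known. One gene of the attachment list and one shared sequence are not reported here.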

Additional observations from a re-analysis of the deposited data

How the results depend on the processing

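The falls of Krt5 and Krt12 and the rise of Krt14 kept their direction and their call under every alternative except the summed counts described here for Krt5, with log2 fold changes from -2.70 to -2.21 for Krt12 and 3.78 to 5.21 for Krt14. The highest value for Krt14, 5.21, was that without WT replicate 2. Leaving out 1 library at a time gave -1.37 to -1.31 for Krt5, -2.46 to -2.21 for Krt12, 3.78 to 5.21 for Krt14 and 0.00494 to 0.32 for Krt15. Krt15 had the opposite sign on log2(TPM + 1) and log2(TPM + 0.1), at -0.175 on both, with adjusted p = 0.325 and 0.323 (limma). The median of all tested genes was -0.282 and -0.325 on these scales, and relative to it on log2(TPM + 1) the differences were -1.41 for Krt5, -2.42 for Krt12, 4.41 for Krt14 and 0.107 for Krt15. Sums with the genes that share words, added after seeing the data, gave 0.257 for Krt5 (adjusted p = 0.14, edgeR) and 0.877 for Krt15 (adjusted p = 0.00298, edgeR). By construction the first sum is mostly Krt6a, Krt6b and Gm5414 in KO. The second rises with the counts of Krt17, with which Krt15 shares 1 word. The number of called genes ranged from 7100 to 9117, and from 7282 to 8145 when 1 library was left out. Of the calls 4231 were higher and 4022 lower, against 3709 and 4630 with library totals only and 2754 and 6350 with limma on log2(TPM + 1).

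Pairing by replicate number was not evident: the correlations of deviations for replicates 1, 2 and 3 were 0.0781, -0.0655 and 0.0595. With 3 libraries in each group these values cannot exclude it. With a replicate block 8083 genes were called, the log2 fold changes were -1.35 for Krt5, -2.38 for Krt12, 4.53 for Krt14 and 0.166 for Krt15, and no call of the 4 changed. Over leave-one-out settings the log2 ratio difference was 5.37 to 6.47 for Krt14 to Krt5, -1.09 to -0.857 for Krt12 to Krt5 and -4.96 to -3.94 for Krt15 to Krt14, where the exact test can go no lower than p = 0.2. Each of the 4 genes had counts far above 3 in every library.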
